A study of Mus musculus with 9 samples.

Results

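Ketone bodies and branched-chain amino acids are both burned in the mitochondria of the heart, and 9 genes of these routes were followed here after myocardial infarction in the mouse. The genes were chosen by name: every transcript entry in the deposited table whose symbol was Bdh1, Oxct1, Acat1, Bcat2, Bckdha, Bckdhb, Dbt, Ppm1k or Hibadh was taken, and the values were summed per gene. This gave 9 of the 25468 genes in the table. All 9 were tested, because all had a mean of at least 1 FPKM (sequenced fragments scaled to the length of the transcript and the size of the library).

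The RNA came from hearts of wild-type mice, labelled WT. The sham group held 3 libraries of hearts from sham-operated mice, with no day of collection in the labels. The infarct groups held 3 libraries from hearts 1 day after surgery that caused a myocardial infarction and 3 libraries from hearts 7 days after it. The labels do not give strain, age or sex, do not say whether an infarcted heart was taken whole or by zone, and do not say whether each library came from 1 animal. A p-value below therefore measures the spread between libraries, part of which may be technical. The series also describes hearts of Hdc-/- mice, which lack the enzyme that makes histamine, and these were not analysed here. Both times were compared with the same sham libraries, so the comparisons at day 1 and day 7 share their controls.

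Ketone bodies are made in the liver and used by the heart. Bdh1 (D-beta-hydroxybutyrate dehydrogenase) oxidises beta-hydroxybutyrate to acetoacetate, Oxct1 (SCOT, succinyl-CoA:3-ketoacid CoA transferase) activates acetoacetate with the CoA of succinyl-CoA, and Acat1 (mitochondrial acetoacetyl-CoA thiolase) splits the product into acetyl-CoA. Leucine, isoleucine and valine first lose their amino group to an aminotransferase, which is Bcat2 in mitochondria. The branched-chain keto acid dehydrogenase complex then removes a carboxyl group in the committed, irreversible step; Bckdha and Bckdhb encode the alpha and beta subunits of its E1 component and Dbt encodes its E2 core. The complex is switched off when the kinase Bckdk phosphorylates its E1 alpha subunit and switched on again by the phosphatase Ppm1k (PP2Cm). Hibadh (3-hydroxyisobutyrate dehydrogenase) acts later, on valine alone. Acat1 stands in both routes, since it also cleaves the last acyl-CoA of isoleucine. Reduced expression of the branched-chain route is a known feature of failing hearts, and Klf15 is known as a transcription factor that drives it in heart muscle.

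The sequences just before the start sites of 3 members are given first, because Bckdha and Bckdhb encode the subunits of one enzyme component, while Bdh1 was the member whose levels ran least like the others. RefSeq promoter windows of 250 bases before an annotated start, on GRCm38.p6, were found for 7 of the 9 members, 10 windows in all, and none was given for Acat1 or Dbt. The build differs from that of the deposited values, GRCm39, so the coordinates below apply to the windows only. Each line reads 5′ to 3′ on the gene's strand and ends at the base before the start. Capitals mark matches on either strand to CCACCC, the core of the CACCC box to which Krüppel-like factors such as Klf15 bind, or to GGGCGG, the GC box of Sp1. The windows are Bckdha at chr7:25658762-25659011 on the minus strand, the first of 2 for Bckdhb at chr9:83924887-83925136 on the plus strand, and the second of 2 for Bdh1 at chr16:31428503-31428752 on the plus strand.
Bckdha: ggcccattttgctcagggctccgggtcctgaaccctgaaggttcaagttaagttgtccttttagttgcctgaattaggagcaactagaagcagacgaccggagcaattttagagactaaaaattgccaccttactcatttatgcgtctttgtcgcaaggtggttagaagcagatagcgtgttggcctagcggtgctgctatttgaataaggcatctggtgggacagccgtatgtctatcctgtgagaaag
Bckdhb: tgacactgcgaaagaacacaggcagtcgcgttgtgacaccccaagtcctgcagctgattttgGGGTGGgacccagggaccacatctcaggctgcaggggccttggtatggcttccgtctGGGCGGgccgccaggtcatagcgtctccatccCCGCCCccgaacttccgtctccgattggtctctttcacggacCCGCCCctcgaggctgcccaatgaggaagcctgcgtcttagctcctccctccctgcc
Bdh1: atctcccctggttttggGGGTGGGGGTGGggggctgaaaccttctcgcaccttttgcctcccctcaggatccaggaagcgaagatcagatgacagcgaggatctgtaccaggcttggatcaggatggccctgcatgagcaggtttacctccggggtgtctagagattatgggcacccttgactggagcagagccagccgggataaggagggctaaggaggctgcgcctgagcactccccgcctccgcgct
The Bckdhb window held 1 CCACCC match and 3 GGGCGG matches, the Bdh1 window held 2 CCACCC matches, and the Bckdha window held neither motif. The other window of Bckdhb and the other window of Bdh1, not shown, also held neither motif. Over the members' 10 windows, CCACCC was found in 2 and GGGCGG in 3, beside 28.1% and 32.7% of all 32851 windows in the table. The GGGCGG matches outside Bckdhb were in the windows of Ppm1k and Hibadh. AAGGTCA, the element bound by estrogen-related receptors, was found in 0 of the 10 windows and in 4.08% of all windows. The matches in the windows shown do not overlap each other, and a match describes letters only.

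The levels of the 9 genes differed widely among themselves in sham hearts. Oxct1 was the most abundant at 284 ± 50.5 FPKM (mean ± SD, n = 3 here and throughout), followed by Acat1 at 124 ± 6.59, Hibadh at 88.4 ± 4.95 and Bckdha at 67.5 ± 6.48, and the ranges of these 4 did not overlap. Bdh1 at 36.1 ± 15.6 FPKM, Bckdhb at 29.4 ± 4.27, Bcat2 at 25.6 ± 3.39, Ppm1k at 23.6 ± 3 and Dbt at 19.2 ± 1.59 followed, each overlapping its neighbour in this order. At day 1 the order was the same except that Bckdhb, at 22.6 ± 1.56 FPKM, stood before Bdh1, at 21.7 ± 11, and these 2 ranges overlapped. At day 7 Bdh1, at 39.2 ± 8.43 FPKM, overlapped Bckdha, at 39.4 ± 9.62, and stood apart from Bcat2 below it.

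**Figure D1:**
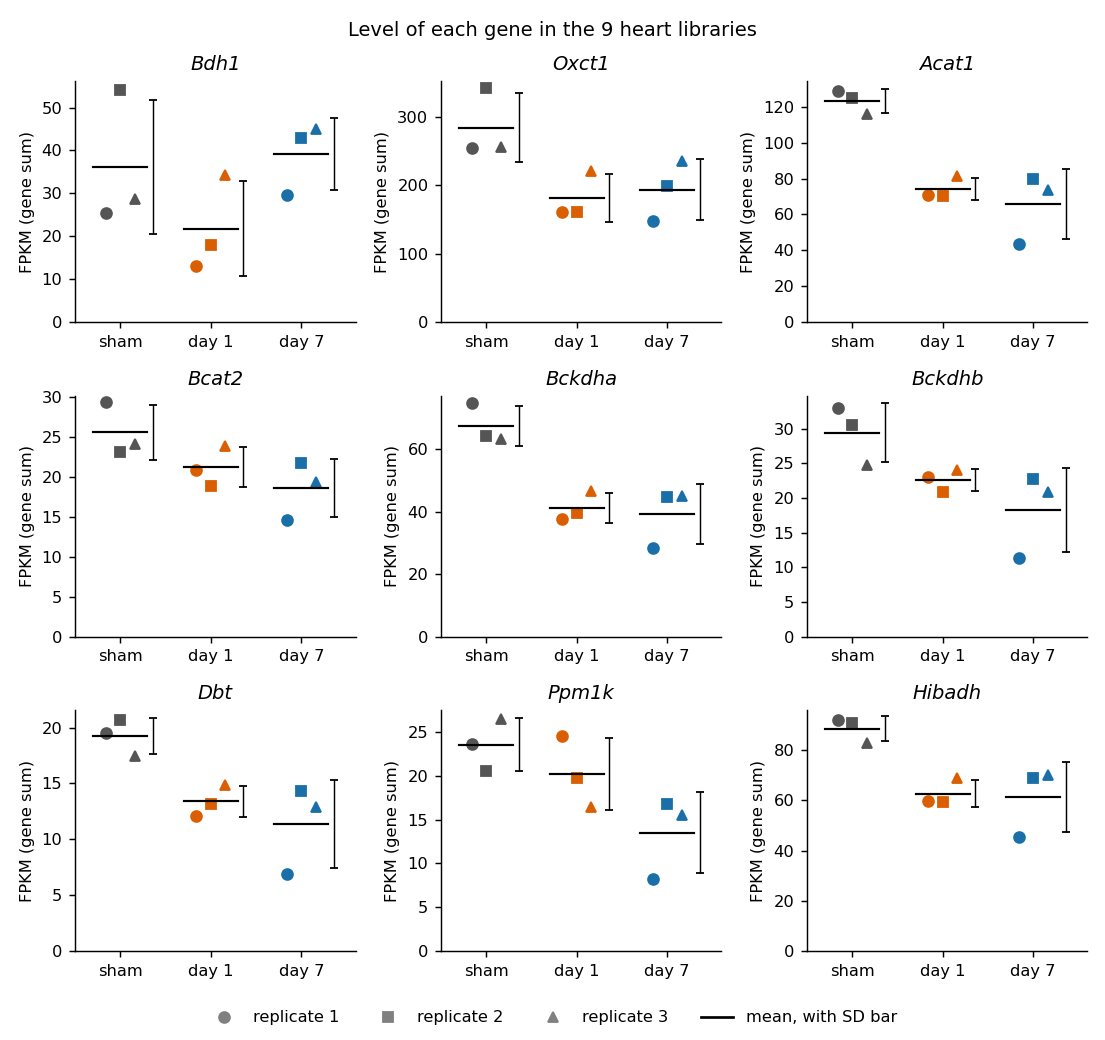
FPKM of the 9 members in each library, 1 panel per gene with a linear axis from 0; points are libraries of sham, infarct day 1 and infarct day 7 hearts, bars are group means and error bars are SD (n = 3). The infarct libraries of Acat1, Bckdha, Bckdhb, Dbt, Hibadh and Oxct1 all lie below their sham libraries at both times, while the Bdh1 groups overlap at both.

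In RNA of heart tissue, fewer cells of a type and less RNA per cell cannot be told apart, and markers of heart muscle differed between the groups. The summed FPKM of 15 cardiomyocyte markers such as Myh6 and Tnnt2, none of them near 0 in any group, was 45166 to 51241 in sham hearts, 23976 to 30939 at day 1 and 19859 to 34468 at day 7. Against the sham mean this was 55.8%, 50.6% and 65.2% in the day 1 libraries and 41.9%, 62.5% and 72.7% in the day 7 libraries. Fibroblast markers summed to 1196 to 1508 FPKM in sham hearts and to 4960 to 7098 at day 7, and leukocyte markers to 482 to 818 in sham hearts and 867 to 1560 at day 1. The part of these shifts in the members' levels was not tested.

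Some libraries stood apart. Day 7 replicate 1 was the lowest of its group for 9 of the 9 members. It had the smallest cardiomyocyte sum, and mitochondrially encoded genes made up 24.4% of its FPKM against 34.2% to 39.8% in the other 8 libraries. Markers of lung airway such as Scgb1a1 summed to 252 FPKM in the first sham library and to 1770 in the second of day 1, and to no more than 20.8 elsewhere. Sham replicate 1 also held 544 FPKM of fat cell markers. Day 7 replicate 2, the highest of its group for 5 of the 9 members, held 226 FPKM of skeletal muscle markers, against at most 8.83 elsewhere, and 72.8 of T cell markers, against at most 13.7. Liver cell markers summed to 33 FPKM in day 7 replicate 3 and to at most 1.47 elsewhere. Leaving out day 7 replicate 2 gave 2 members called lower by limma at day 1 and 7 at day 7. Without both airway-positive libraries 0 of the 9 members were called at either time by limma, with 1 at day 1 and 6 at day 7 under an unadjusted p of 0.05. Calls dropped over all 13514 genes tested in that setting. At day 1, 146 were lower and 256 higher, beside 1993 and 1817 with all libraries. At day 7, 1047 were lower and 1078 higher, beside 2341 and 2127. Atrial markers summed to between 244 and 2746 FPKM in the sham libraries and between 290 and 11198 at day 1, so their level also varied within groups.

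Relative to sham hearts, 3 of the 9 genes fell at day 1 and 0 rose, and 6 fell at day 7 and 0 rose, by limma on log2(FPKM + 1) at an adjusted p under 0.05. Of all 13514 genes tested, 14.7% were called lower and 13.4% higher at day 1, and 17.3% and 15.7% at day 7. Calls of a fall were more frequent among the 8785 genes with a mean of at least 5 FPKM, which include all 9 members. Of these, 1807 were lower and 1199 higher at day 1, and 2073 and 1310 at day 7. In that setting 4 members were called lower at day 1 and 7 at day 7. Among all 13514 tested, the members that fell at day 1 were Acat1, Bckdha and Oxct1. Those that fell at day 7 were Acat1, Bckdha, Bckdhb, Dbt, Hibadh and Ppm1k. The median log2 fold change of the 9 was -0.49 at day 1 and -0.70 at day 7, beside -0.01 and -0.02 over all genes tested. In 6 members at day 1 and 8 at day 7 every infarct library lay below every sham library, which held for 25.1% and 28.8% of all genes tested. Every infarct library lay above every sham library in 0 members at either time, beside 22.5% of all genes at day 1 and 25% at day 7. These separations, here and gene by gene below, are on deposited FPKM and were not redone after scaling to a common total. Summed FPKM was 768943 to 792632 in the sham libraries, 597380 to 729940 at day 1 and 521643 to 679204 at day 7. Every infarct total thus lay below every sham total.

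These counts depended on single libraries. The day 1 count was 0 when any of sham replicates 1 and 2 and day 1 replicates 1 and 2 was left out. It was 1, Bckdha, when sham replicate 3 was left out, and 5 when day 7 replicate 1 was, which enters through the shared estimate of the spread. The day 7 count was 2, Acat1 and Bckdha, when any 1 of the sham libraries was left out. Scaling each library to a common total (TPM) left 2 genes called at each time, again Acat1 and Bckdha, while it moved the median of all genes to 0.23 at day 1 and 0.30 at day 7 and the share of higher among all calls from 47.7% to 80.3% and from 47.6% to 87.8%. Relative to that median the members moved little: Acat1 stood 0.72 below it before and 0.69 below it after this scaling at day 1. Dividing a library by 1 total shifts its genes nearly alike, so this scaling could hardly change that distance. Quantile normalization, which gives all libraries the same distribution of values, could. With it the distance at day 1 was -0.54 for Acat1 and -0.35 for Oxct1, beside -0.72 and -0.64 on deposited FPKM.

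Bdh1, the opening enzyme of ketone oxidation, measured 25.5, 54 and 28.7 FPKM in the sham libraries, 13.1, 17.9 and 34.2 at day 1 and 29.5, 42.9 and 45.1 at day 7. The groups overlapped in every comparison, with sham replicate 2 and day 1 replicate 3 high and day 1 replicate 1 low. The log2 fold change was -0.73 ± 0.37 (SE) at day 1 (limma, adjusted p = 0.172) and 0.17 ± 0.37 at day 7 (adjusted p = 0.748). Without sham replicate 1 the day 7 value was -0.03, so its direction was not settled. The coefficient of variation of Bdh1 was 43.2% in sham hearts and 50.8% at day 1, the highest of the 9 genes in both groups. In each group the library with the least Bdh1 had the highest atrial marker sum, at 2746 FPKM in sham hearts, 11198 at day 1 and 5476 at day 7. The library with the most Bdh1 had the lowest atrial sum at day 1 (290 FPKM, against 4430 and 11198), the middle one in sham hearts (1462, against 244 and 2746) and the middle one at day 7 (1437, against 812 and 5476). The part of atrial content in this spread was not tested.

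Oxct1, the transferase that commits acetoacetate to oxidation, measured 254, 342 and 255 FPKM in sham hearts, 161, 161 and 221 at day 1 and 147, 198 and 235 at day 7. All infarct libraries lay below all sham libraries. It fell at day 1, by 0.65 ± 0.21 on the log2 scale (limma, adjusted p = 0.0479), to 63.8% of the sham mean. At day 7 the log2 fold change was -0.56 ± 0.21 and did not pass (adjusted p = 0.0675). The day 1 call held in 11 of 23 alternative settings. Leaving out any sham library, day 1 replicate 1 or 2, or day 7 replicate 2 ended it, with an adjusted p of 0.0667 to 0.155.

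Acat1, the thiolase shared by ketone and isoleucine breakdown, measured 129, 125 and 116 FPKM in sham hearts, 71, 70.4 and 81.2 at day 1 and 43.3, 79.7 and 73.8 at day 7. The sham libraries lay close together and well above every infarct library. Acat1 fell by 0.73 ± 0.20 on the log2 scale at day 1 (limma, adjusted p = 0.0298) and by 0.95 ± 0.20 at day 7 (adjusted p = 0.0117), to 60% and 53.1% of the sham mean. The day 7 call held in 22 of 23 alternatives, all but that without both airway-positive libraries, where the adjusted p was 0.054. The day 1 call held in 14 of 23, and ended when any sham library or day 1 replicate 1 or 2 was left out (limma, adjusted p from 0.0607 to 0.0928).

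In branched-chain amino acid breakdown, Bcat2, the mitochondrial aminotransferase, measured 29.4, 23.1 and 24.1 FPKM in sham hearts, 20.9, 18.9 and 23.8 at day 1 and 14.6, 21.7 and 19.4 at day 7. The day 1 group overlapped sham and the day 7 group lay below it. Neither difference passed: the log2 fold change was -0.26 ± 0.16 at day 1 (limma, adjusted p = 0.254) and -0.45 ± 0.16 at day 7 (adjusted p = 0.0559). With TPM scaling the day 1 value was 0.01.

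Bckdha, the E1 alpha subunit on which the complex is phosphorylated, measured 74.9, 64.3 and 63.2 FPKM in sham hearts, 37.6, 39.5 and 46.8 at day 1 and 28.3, 44.7 and 45.1 at day 7. Every infarct library lay below every sham library. It fell by 0.70 ± 0.18 on the log2 scale at day 1 (limma, adjusted p = 0.023) and by 0.79 ± 0.18 at day 7 (adjusted p = 0.0141). These calls held in 17 and 22 of 23 alternatives. The day 1 call ended when sham replicate 1 or 2 or day 1 replicate 1 or 2 was left out (limma, adjusted p from 0.0604 to 0.0757).

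Bckdhb, the E1 beta subunit, measured 33, 30.5 and 24.7 FPKM in sham hearts, 23, 20.9 and 24 at day 1 and 11.4, 22.7 and 20.8 at day 7. The groups did not overlap with sham at either time, though sham replicate 3 and day 1 replicate 3 differed by little. On the leading transcript entry alone both times overlapped sham. That entry measured 33, 24.2 and 18.1 FPKM in sham hearts, 15, 20.9 and 23.9 at day 1 and 11.4, 15.5 and 20.8 at day 7. The day 1 log2 fold change of -0.36 ± 0.23 did not pass (limma, adjusted p = 0.272), and at day 7 Bckdhb fell by 0.70 ± 0.23 (adjusted p = 0.0439). That call held in 7 of 23 alternatives, the fewest of the 6 day 7 calls, and was lost when only the most expressed transcript was used. The call held when day 7 replicate 2 or 3 was left out and ended when any of the other 7 libraries was (limma, adjusted p from 0.054 to 0.12).

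The ratio of the E1 subunits' FPKM, Bckdha to Bckdhb, was 2.27, 2.11 and 2.56 in sham hearts, 1.63, 1.89 and 1.95 at day 1 and 2.48, 1.97 and 2.17 at day 7. The day 1 libraries lay below both other groups, though by little against day 7. On the leading transcript entry of each gene alone the ratio was 2.26, 2.65 and 3.47 in sham hearts, 2.5, 1.89 and 1.94 at day 1 and 2.47, 2.83 and 2.17 at day 7, and all groups overlapped. These ratios are descriptions with no test.

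Dbt, the E2 core, measured 19.5, 20.7 and 17.5 FPKM in sham hearts, 12.1, 13.2 and 14.9 at day 1 and 6.92, 14.3 and 12.9 at day 7. No infarct library reached the sham range. The day 1 log2 fold change was -0.49 ± 0.22 (limma, adjusted p = 0.128), and at day 7 Dbt fell by 0.76 ± 0.22 (adjusted p = 0.0305), to 59.1% of the sham mean. The day 7 call held in 15 of 23 alternatives and ended when any sham library was left out (limma, adjusted p from 0.0553 to 0.0944).

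Ppm1k, the phosphatase that activates the complex, measured 23.6, 20.5 and 26.5 FPKM in sham hearts, 24.5, 19.7 and 16.4 at day 1 and 8.23, 16.8 and 15.5 at day 7. The day 1 libraries spread across and below the sham range, while the day 7 libraries all lay below it. The log2 fold change was -0.22 ± 0.25 at day 1 (limma, adjusted p = 0.536), which became 0.05 with TPM scaling. At day 7 Ppm1k fell by 0.81 ± 0.25 (adjusted p = 0.0365), to 57.4% of the sham mean. Day 7 against day 1 gave -0.59 ± 0.25 (adjusted p = 0.2), so a difference between the times was not shown. The day 7 call held in 11 of 23 alternatives and ended when any sham library, day 1 replicate 2 or day 7 replicate 1 was left out (limma, adjusted p from 0.0516 to 0.102).

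Hibadh, the valine-route dehydrogenase, measured 91.9, 90.5 and 82.7 FPKM in sham hearts, 59.7, 59.2 and 68.8 at day 1 and 45.3, 68.7 and 70.1 at day 7. All infarct libraries lay below all sham libraries. The day 1 log2 fold change of -0.49 ± 0.16 just missed the threshold (limma, adjusted p = 0.0521), and at day 7 Hibadh fell by 0.54 ± 0.16 (adjusted p = 0.0341). That call held in 14 of 23 alternatives and ended when any sham library was left out (limma, adjusted p from 0.061 to 0.0964).

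**Figure D2:**
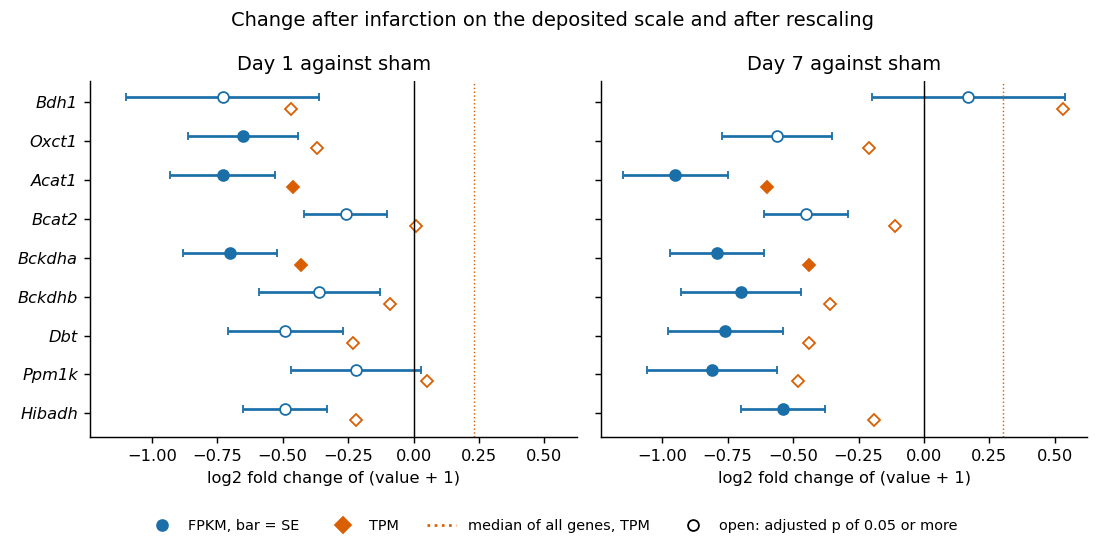
Log2 fold change of each member against sham, at day 1 in the left panel and day 7 in the right, on the log2(value + 1) scale; circles are deposited FPKM with bars of 1 SE (n = 3 per group), diamonds are TPM, filled symbols passed limma's test at an adjusted p under 0.05, and the dotted line is the median of all genes in TPM. Acat1 and Bckdha are filled on both scales at both times, Bdh1 is open throughout, and the TPM values of Bcat2 and Ppm1k at day 1 lie at 0.01 and 0.05.

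Between day 7 and day 1, 0 of the 9 members were called in either direction by limma, where 2.14% of all genes tested were called lower and 2.71% higher. At an unadjusted p under 0.05, 1 was lower and 1 higher. Bdh1 gave the largest of the 9 differences, 0.91 ± 0.37 (adjusted p = 0.189), and its values overlapped between the times. The other 8 lay between -0.59 and 0.08, and no member had groups that did not overlap, which 14.1% and 13.1% of all genes had in the lower and higher direction.

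Set against the cardiomyocyte markers of the same library, each member overlapped its sham libraries or lay above them. Acat1 per summed marker FPKM was 103%, 112% and 100% of the sham mean at day 1 and 83.4%, 103% and 82% at day 7, and Bckdha was 99.3%, 115% and 106% and then 99.6%, 106% and 91.6%. Both overlapped the sham libraries, as did Oxct1 and Ppm1k at both times. Hibadh lay above sham at both times, at 119% to 132% and at 109% to 124%. Bcat2, Bckdhb and Dbt lay above sham at day 1 and overlapped it at day 7. Against the median of 21 nuclear-encoded respiratory chain subunits, Acat1 lay below every sham library at both times. It was 84.6% to 92.5% of the sham mean at day 1 and 68.5% to 87.9% at day 7. Bckdha lay below sham at day 7 on that scale, at 82% to 90.5%. Bcat2 lay above sham at day 1 and Bdh1 at day 7, and the other comparisons with sham overlapped.

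Bdh1 differed from the other members in the ratios to the cardiomyocyte markers. It was 74.3%, 141% and 84.9% of the sham mean in the sham libraries, 66.3%, 99.9% and 148% at day 1, and 199%, 194% and 175% at day 7. The day 7 libraries, including replicate 1 with its few cardiomyocyte markers, lay above every sham and day 1 library. Against the median of 21 nuclear-encoded respiratory chain subunits, the day 7 values were 160%, 163% and 159%. Oxct1 to Bdh1 accordingly stood at 4.99, 4.61 and 5.21 at day 7, below the sham ratios of 9.96, 6.34 and 8.89 and the day 1 ratios of 12.3, 9.01 and 6.45. These ratios are descriptions with no test.

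**Figure D3:**
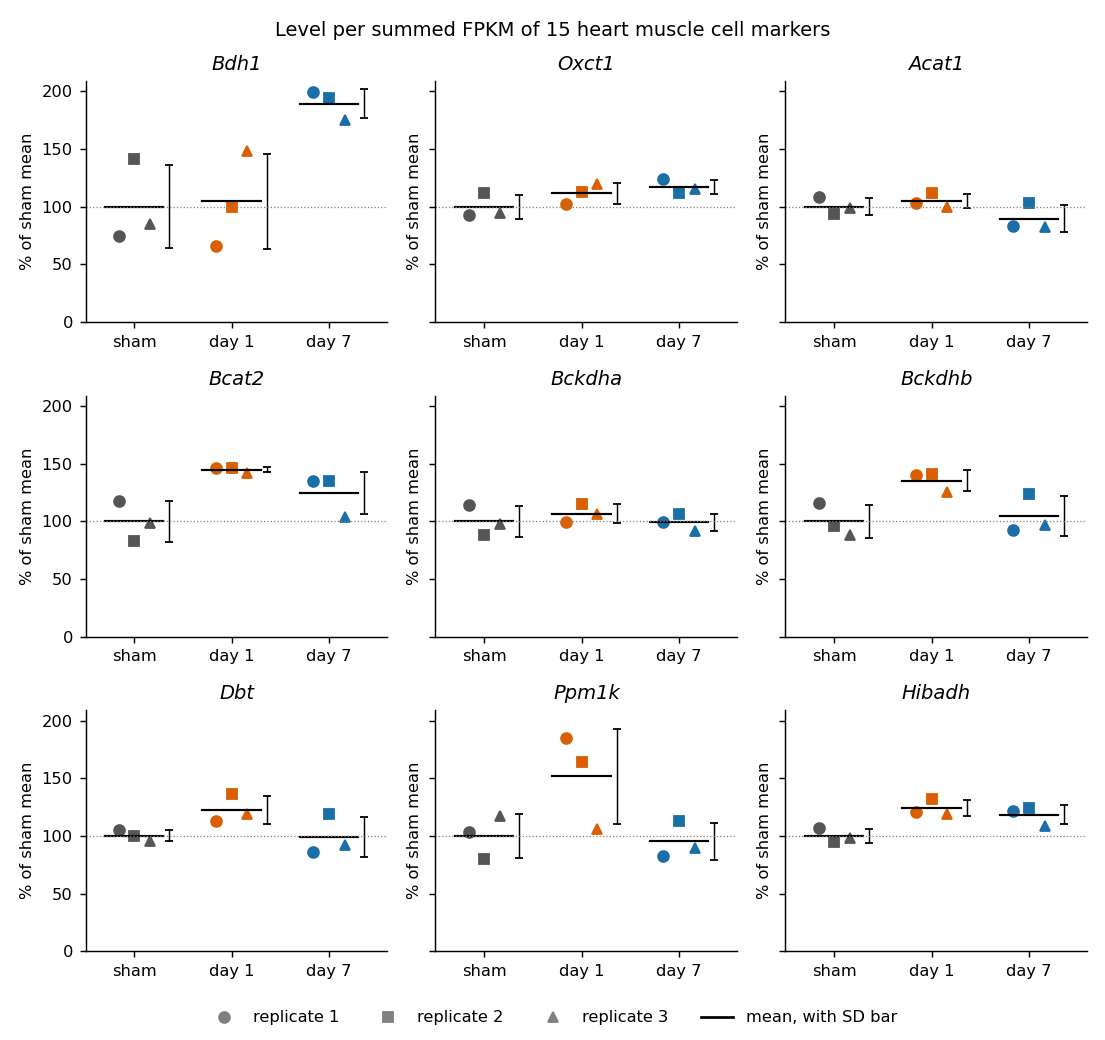
FPKM of each member per summed FPKM of the 15 cardiomyocyte markers in the same library, as percent of the sham mean; points are libraries (n = 3 per group) on a linear axis from 0. Day 7 Bdh1 sits at 175% to 199%, above all other Bdh1 points, while Acat1, Bckdha and Oxct1 overlap their sham points at both times.

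The genes around the members, from lists of ketone and branched-chain amino acid genes, gave the following. Of 24 other genes of branched-chain amino acid breakdown, uptake and control, all were tested, 9 fell and 2 rose at day 1, and 16 fell and 1 rose at day 7. Their median log2 fold change was -0.48 and -0.63. Of all genes tested, 14.7% fell and 13.4% rose at day 1, and 17.3% fell and 15.7% rose at day 7. With 1 library left out the lower count at day 1 was 3 for sham replicate 1 and for sham replicate 2, 4 for day 1 replicate 1, 2 for day 1 replicate 2 and 17 for day 7 replicate 1. At day 7 it was 9 for sham replicate 1 and 8 for sham replicate 2. With TPM scaling 4 fell at day 1 and 7 at day 7, and without both airway-positive libraries 0 and 7 did.

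Dld, the E3 subunit that the complex shares with pyruvate and 2-oxoglutarate dehydrogenase, measured 202, 209 and 177 FPKM in sham hearts, 115, 109 and 135 at day 1 and 80.9, 136 and 132 at day 7. It fell at both times, by 0.71 ± 0.20 (limma, adjusted p = 0.0279) and by 0.78 ± 0.20 (adjusted p = 0.0187). Leaving out sham replicate 1 or 2 ended both calls, and leaving out day 1 replicate 1 or 2 the first (limma, adjusted p from 0.0529 to 0.0946). Bckdk, the kinase that opposes Ppm1k, measured 24.7, 26 and 23 FPKM in sham hearts and 17.3, 19.7 and 20 at day 7, where it fell by 0.36 ± 0.09 (limma, adjusted p = 0.0166). With TPM scaling that value was -0.01 (limma, adjusted p = 0.929), and without sham replicate 2 the adjusted p was 0.0612. At day 1 Bckdk gave -0.23 ± 0.09 (limma, adjusted p = 0.0793), or 0.04 with TPM. The ratio of Bckdk to Ppm1k, kinase to phosphatase, was 1.05, 1.27 and 0.866 in sham hearts, 0.843, 1.01 and 1.33 at day 1 and 2.1, 1.17 and 1.29 at day 7, and the groups overlapped with day 7 replicate 1 standing high.

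Further along the leucine, isoleucine and valine arms, genes that fell at both times included Hibch, the valine-route hydrolase just before Hibadh, at -0.77 ± 0.20 (limma, adjusted p = 0.0226) and -0.70 ± 0.20 (adjusted p = 0.0282). Hsd17b10, the isoleucine-route dehydrogenase just before Acat1, gave -0.70 ± 0.18 and -0.92 ± 0.18 (limma, adjusted p = 0.0215 and 0.00882). Acadsb, the isoleucine-route acyl-CoA dehydrogenase, fell by 0.45 ± 0.10 and 0.88 ± 0.10 (limma, adjusted p = 0.0157 and 0.00229), and its day 7 call held in 23 of 23 alternatives. The propionyl-CoA genes Pccb, Mcee, Mmut (listed as Mut) and Mmaa, which carry isoleucine and valine carbon on to succinyl-CoA, also fell at both times, as did Auh of the leucine route. Mccc1 and Mccc2 of the leucine route, Pcca, Echs1 and Aldh6a1 fell at day 7 and did not pass at day 1, and none of them was called between the times. Of these genes, Pccb, Mcee and Mccc1 kept their calls whichever 1 library was left out. For the others an adjusted p from 0.0501 to 0.124 was reached, most often without sham replicate 1 or 2 and, at day 1, without day 1 replicate 2.

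Bcat1, the cytosolic aminotransferase that does the same reaction as Bcat2 outside mitochondria, ran the other way. It measured 1.67, 1.47 and 1.75 FPKM in sham hearts, 6.43, 6.98 and 10.1 at day 1 and 4.01, 4.16 and 2.85 at day 7, with no overlap between any groups. It rose by 1.73 ± 0.17 at day 1 (limma, adjusted p = 0.00124) and 0.82 ± 0.17 at day 7 (adjusted p = 0.0101), and was tested in 22 alternatives, with both calls held in all 22. Bcat1 made up 5.36% to 6.76% of the summed Bcat1 and Bcat2 FPKM in sham hearts, 23.5% to 29.8% at day 1 and 12.8% to 21.6% at day 7. The leukocyte marker sum was 867, 1560 and 1355 FPKM at day 1 and 1079, 1276 and 940 at day 7. This sum lay above every sham library at both times and overlapped between the times. Gene by gene, 10 of 13 leukocyte marker genes tested had a log2 fold change below 0 at day 7 against day 1, with a median of -0.74. The part of leukocytes in the Bcat1 levels was not tested. Slc3a2, the heavy chain of the amino acid transporter that brings in branched-chain amino acids, also rose at day 1, by 0.37 ± 0.12 (limma, adjusted p = 0.0448), a call that held in 12 of 23 alternatives and ended when any 1 library but sham replicate 2 and day 1 replicate 1 was left out (limma, adjusted p from 0.0511 to 0.139).

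Klf15, the regulator of this route, measured 26.2, 19.8 and 23.2 FPKM in sham hearts, 17.7, 14.7 and 11.8 at day 1 and 5.68, 10.7 and 10.7 at day 7. All infarct libraries lay below sham, and the day 7 libraries below those of day 1. It fell at day 7 by 1.30 ± 0.23 (limma, adjusted p = 0.00709), to 39.2% of the sham mean, and that call held in 23 of 23 alternatives. The day 1 value, -0.62 ± 0.23, did not pass (limma, adjusted p = 0.0798). Per cardiomyocyte marker Klf15 was still 58.4%, 74% and 63.4% of the sham mean at day 7, below every sham library.

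**Figure D4:**
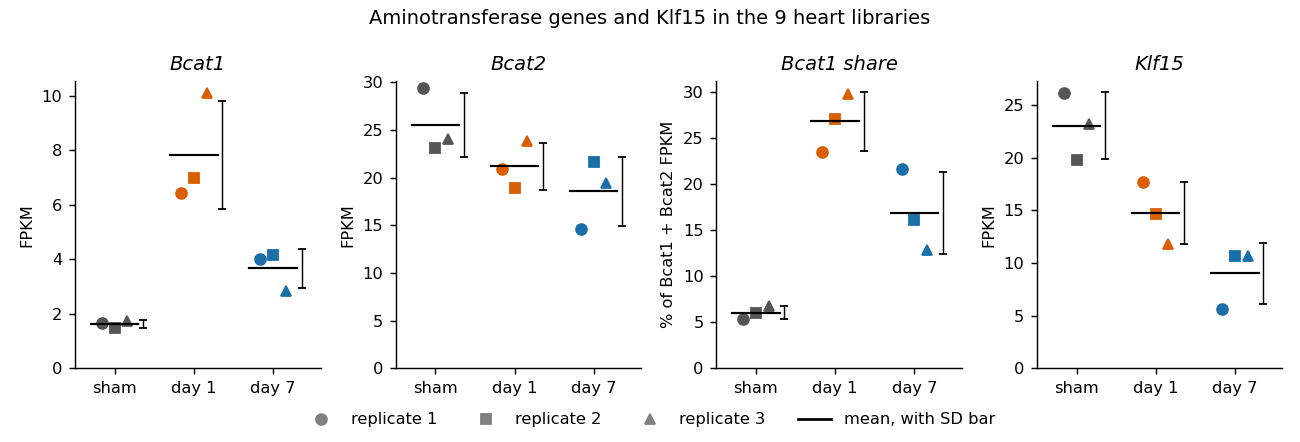
FPKM of Bcat2, Bcat1 and Klf15, and Bcat1 as a percent of summed Bcat1 and Bcat2 FPKM, by library on linear axes from 0; points are libraries, bars are means and error bars are SD (n = 3). Bcat1 is at 1.47 to 1.75 FPKM in sham hearts and 6.43 to 10.1 at day 1, while Klf15 reaches 5.68 to 10.7 at day 7.

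On the ketone side, 6 of 10 other genes were tested, 2 fell and 1 rose at day 1, and 2 fell and 0 rose at day 7. Over all genes tested, 14.7% fell and 13.4% rose at day 1, and 17.3% fell and 15.7% rose at day 7. Slc16a1 (MCT1), the transporter that carries ketone bodies and lactate across the plasma membrane, measured 67.4, 82.1 and 82.7 FPKM in sham hearts, 41.7, 38.5 and 49 at day 1 and 35.9, 45.6 and 60.7 at day 7. It fell by 0.83 ± 0.19 (limma, adjusted p = 0.0139) and by 0.72 ± 0.19 (adjusted p = 0.0204). The first call ended without sham replicate 2 or day 1 replicate 2 and the second without sham replicate 2 or 3 or day 7 replicate 1 or 2 (limma, adjusted p from 0.0522 to 0.0692). Bsg (basigin), the chaperone that takes MCT1 to the membrane, fell by 0.87 ± 0.13 and 0.68 ± 0.13 (limma, adjusted p = 0.00411 and 0.00848). Slc16a6, a transporter of ketone bodies in the liver, rose at day 1 by 0.61 ± 0.13 (limma, adjusted p = 0.0119). Its exons overlap 1 other gene on the same strand and 2 on the opposite strand in the GENCODE M21 annotation of GRCm38. The number that fell at day 1 was 1 when sham replicate 2 or day 1 replicate 2 was left out, and the number that rose was 2 when sham replicate 1 was. At day 7 the number that fell was 1 when any of sham replicates 2 and 3 and day 7 replicates 1 and 2 was left out. Without both airway-positive libraries 0 fell and 0 rose at day 1, and 2 fell at day 7. Oxct2a and Oxct2b, the testis forms of the transferase, were listed at 0 in every library.

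**Figure D5:**
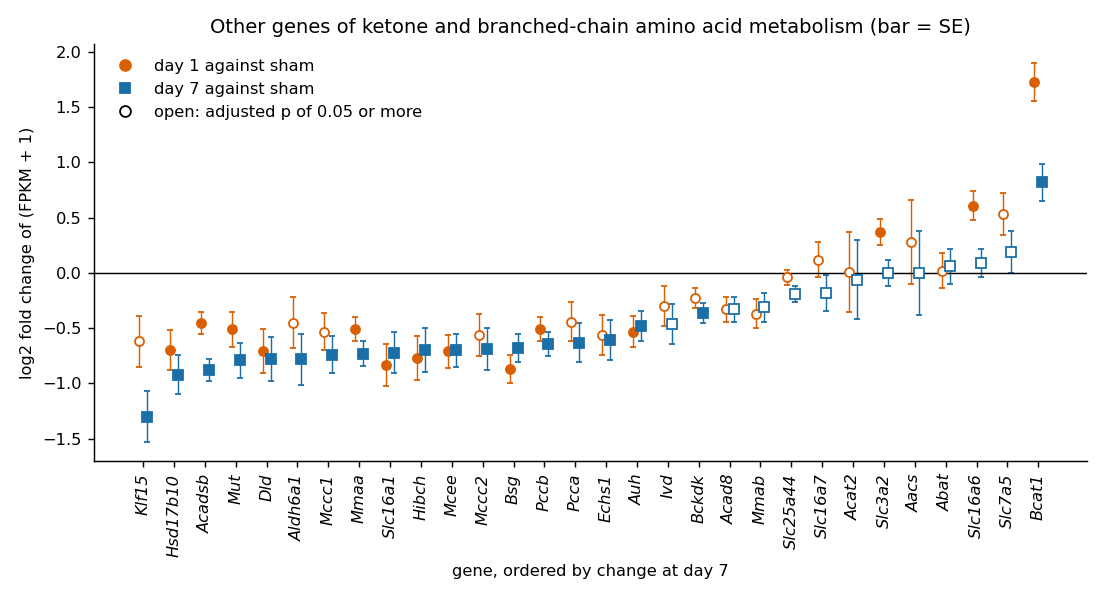
Log2 fold change on the log2(FPKM + 1) scale of the other tested genes of ketone and branched-chain amino acid metabolism, infarct day 1 and day 7 against sham; points are limma estimates, bars are 1 SE (n = 3 per group), and filled points passed at an adjusted p under 0.05. Bcat1 lies at 1.73 and 0.82, Klf15 is the lowest at day 7 at -1.30.

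Further lists of mitochondrial fuel use are given for comparison, beside the 14.7% of all genes called lower at day 1 and 17.3% at day 7. Of 21 genes of the tricarboxylic acid cycle and pyruvate dehydrogenase, 12 fell at day 1 and 16 at day 7, with medians of -0.56 and -0.68. Of 22 genes of fatty acid oxidation, 5 fell and 0 rose at day 1 and 12 fell and 1 rose at day 7, with medians of -0.59 and -0.67. Of 21 respiratory chain subunits 11 and 14 fell, with medians of -0.54 and -0.56. With TPM scaling the numbers that fell were 7 and 10 for the cycle, 5 and 8 for fatty acid oxidation and 7 and 6 for the subunits.

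Single libraries moved these list counts as they did those of the members. With 1 library left out, the number that fell at day 1 ran from 2 to 20 for the cycle, 0 to 19 for fatty acid oxidation and 0 to 21 for the subunits, lowest without sham replicate 2 or day 1 replicate 2 and highest without day 7 replicate 1. At day 7 it ran from 4 to 21, 1 to 14 and 4 to 16, lowest without sham replicate 1 or 2. Without both airway-positive libraries it was 0 in each list at day 1, and 3, 0 and 1 at day 7. The members' medians of -0.49 and -0.70 stand beside those of these lists, and no difference between the lists was tested. Dld is also counted among the cycle genes and Echs1 among those of fatty acid oxidation.

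Among themselves, the member profiles across the 9 libraries (centred log2 levels) were closest for Acat1 and Bckdha, with a root mean square difference of 0.10, then for Acat1 and Dbt and for Bckdhb and Dbt, at 0.11 each. Bdh1 differed from each other member by 0.45 to 0.84. Over 8343 genes with a mean of 5 FPKM or more, the 2 genes outside the members that ran closest to Acat1 were Tcea3 at 0.06 and Fh1, the fumarase of the citric acid cycle, at 0.08. Those closest to Bckdha were Ldhd at 0.06 and Ndufs4, a complex I subunit, at 0.07, and those closest to Hibadh were Mrps9 at 0.04 and Dlst at 0.05. Bckdhb ran closest to Aldh4a1 at 0.09 and Aldh6a1, of the valine route, at 0.10. Oxct1 ran closest to Zfp106 at 0.08 and Apoo at 0.09, Bcat2 to Eci2 at 0.08 and Arl3 at 0.09, Dbt to Fkbp4 at 0.08, and Ppm1k to Ppip5k2 at 0.09 and Ccdc141 at 0.12. The nearest genes to Bdh1 were farther off, Egln3, an oxygen-sensing prolyl hydroxylase, at 0.28 and Fam213b at 0.31. All points share the same libraries, so these distances are descriptions.

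The gene sums rest on how reads were divided among transcripts. Acat1 and Hibadh had 1 transcript entry each, Oxct1 had 2, of which ENSMUST00000110690 held 75% to 81.3% of the sum, and the leading entry of Bdh1 held 68.8% to 79%. In the GENCODE M21 annotation of GRCm38, exons of Bdh1, Oxct1, Bcat2 and Bckdha overlap a gene on the opposite strand and those of Hibadh overlap 1 on the same strand. The sources used here do not say whether counting used strand, so reads of such pairs may not be told apart. No such overlap was found for Acat1, Bckdhb, Dbt and Ppm1k. Among the other genes called here, exons of Aldh6a1, Bcat1, Echs1, Mccc1 and Pcca also overlap genes on the opposite strand.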

How the data were processed

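Per the labels' protocols, TRIzol was used to isolate total RNA of hearts, and the VAHTS Universal V6 kit to build libraries. HISAT2 2.1.0, HTSeq 0.11.2, FastQC 0.11.9 and the build GRCm39 are named, per the submitters' processing notes. The annotation release and the strand setting are not given in the sources read here. The authors deposited FPKM for 55361 transcript entries, and 11.8% of the positive values were under 1e-06, so reads had been divided among transcripts and depth is unknown. FPKM summed to between 521643 and 792632 per library, and every infarct library summed to less than every sham library. Here FPKM were summed per gene, giving 25468 genes, and 13514 with a mean of at least 1 FPKM over the 9 libraries were tested on log2(FPKM + 1), a scale that understates the change of low genes, with limma 3.58.1 in R 4.3.3 (trend, 1 mean per group, Benjamini-Hochberg over all genes, two-sided, called under an adjusted p of 0.05). An exact permutation test of 3 against 3 cannot go below 0.1. The fit was tested on simulated data with independent noise per gene and library. Those data held no library-wide shifts and no traces of other tissues, so the test does not cover these.

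The 9 members and the lists were chosen with earlier results of these data known. All members are named; of the other ketone and branched-chain amino acid genes, those called in a comparison, with Bckdk, Klf15, Slc16a1, Bcat1 and Dld named whatever they did; and for each member the 2 nearest protein-coding genes by profile. A few genes of these lists are not reported here and are left out of their counts. Samples were grouped by their labels, and 23 alternative settings of scaling, low-value filter, pseudocount, model and left-out libraries were run. Replicate numbers were not used to pair the samples, as the labels give no shared animal, litter or day.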

Additional observations from a re-analysis of the deposited data

Results flagged for a closer look

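Bcat1 is given here because its change differed between the 2 times after infarction by a test of that difference. It was higher than sham at day 1 and day 7, and day 7 against day 1 gave a log2 fold change of -0.91 ± 0.17 (limma, adjusted p = 0.0261), with all 3 day 7 libraries below all 3 day 1 libraries. That call held in 14 of 22 alternatives. It was lost without day 1 replicate 2, day 7 replicate 1 or day 7 replicate 3 (limma, adjusted p = 0.0682, 0.0531 and 0.0729) and with TPM scaling (adjusted p = 0.0602), and the adjusted p ran from 0.0167 to 0.117 over the alternatives. Bcat1 is low in the heart, at 1.47 to 10.1 FPKM, and its exons overlap 1 gene on the opposite strand in the GENCODE M21 annotation. Leukocyte marker sums overlapped between the 2 times, at 867 to 1560 FPKM on day 1 and 940 to 1276 on day 7. Gene by gene, 10 of 13 leukocyte marker genes tested had a log2 fold change below 0 at day 7 against day 1. Their median was -0.74, beside -0.01 over all genes tested. The part of leukocytes in the Bcat1 difference was not tested.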

How the results depend on the processing

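Of the 9 members, 3 were called lower at day 1 and 6 at day 7. At day 1 the count was 0 with no filter on low values or without both airway-positive libraries, 1 with TPM without mitochondrially encoded genes or with quantile normalization, 5 with only the 2 groups compared and 6 with array weights. At day 7 it was 2 with no filter, with TPM, with TPM without mitochondrially encoded genes or with only the 2 groups compared, 3 with quantile normalization and 0 without both airway-positive libraries. Leaving out 1 library at a time gave 0 to 5 at day 1 and 2 to 7 at day 7. With array weights 1 member was called higher at day 7 than at day 1. The labels do not say whether replicate numbers pair the samples. Deviations of same-numbered samples from their group means correlated at 0.27, -0.37 and 0.23 between sham and day 1. They correlated at -0.07, -0.26 and -0.13 between sham and day 7, and at 0.05, 0.23 and 0.18 between day 1 and day 7. A fit with the replicate number as a block called 3 lower at day 1 and 4 at day 7. Values that changed sign were Bdh1 at day 7, -0.03 without sham replicate 1 and without both airway-positive libraries (and up to 0.49 with 1 library left out), and Bcat2, Ppm1k and Bckdk at day 1, 0.01, 0.05 and 0.04 with TPM. None of these had passed the test. Over all genes, the counts ran from 146 to 3027 lower and 256 to 3583 higher at day 1, beside 1993 and 1817, and from 527 to 2618 lower and 1078 to 3844 higher at day 7, beside 2341 and 2127. The cause of these shifts was not tested. The unknown depth leaves no counting interval for any value.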

Other observations

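In Bckdhb, the transcript entry ENSMUST00000190637 was listed at 6.34 and 6.6 FPKM in sham replicates 2 and 3, 8.04 in day 1 replicate 1 and 7.2 in day 7 replicate 2, and at 0.0172 to 0.0188 in the other 5 libraries. The split did not follow the groups, and the main entry ENSMUST00000034801 held 65.1% to 79.2% of the gene sum in the first 4 libraries and 99.8% or more in the others.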
